A study of Mus musculus with 9 samples.

Results

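Goblet cells are the mucus-secreting cells of the intestinal epithelium, and 9 genes that encode their products and the factors that specify them are described here across the length of the mouse small intestine. The genes are Muc2, Fcgbp, Clca1, Zg16, Tff3, Spink4, Agr2, Spdef and Atoh1. They were taken by name from the array annotation, keeping probe sets annotated to exactly 1 gene symbol, and the probe set with the highest mean log2(signal + 16) stood for a gene. All 9 were found, with 13 probe sets in all, among 18193 genes and 45037 probe sets. All 9 also passed the filter on low signals, as did 10977 genes in all.

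RNA came from mucosal scrapings of male C57BL/6J mice, an inbred strain, that were 9 weeks old when the diets began. All had eaten a high-fat diet for 2 weeks: HF-PO with palm oil (a P/S value of 1.0 in the labels), HF-OO with olive oil (P/S 4.6), or HF-SO with safflower oil, whose labelled P/S is the highest. The small intestine was cut into a distal (SI3), a middle (SI2) and a proximal (SI1) part of equal length, and for every part and diet 6 mice gave 1 RNA pool, hybridised to 1 Affymetrix array. A part thus has 3 arrays, 1 from each diet, 9 arrays in all. P-values measure the spread between these 3 pools. A low-fat group was not analysed here.

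The mucus layer keeps bacteria and food particles away from the epithelium. Its scaffold in the small and large intestine is the gel-forming mucin MUC2, which is folded and linked through disulfide bonds in the endoplasmic reticulum, decorated with O-linked sugars in the Golgi apparatus, packed into granules and released by goblet cells. The transcription factor ATOH1 commits crypt progenitors to the secretory lineages, among them goblet and Paneth cells, and SPDEF acts after it in the maturation of both. Goblet cells become more frequent along the small intestine towards the colon.

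Values are MAS5 signals, a linear brightness per probe set that the authors scaled so that each array has the same trimmed mean. The median signal of an array was 94.4 to 105.9, and precision is limited by having 3 arrays per part. The mean correlation of an array with the others of its part lay between 0.971 and 0.974, computed across probe sets. Transcripts of other tissues stood apart in SI1, although adhering pancreas was removed from the tissue, per the labels. The 7 measured markers of the exocrine pancreas had a summed signal of 297.3 to 483.7 in SI3, 247.4 to 456.8 in SI2 and 29956 to 39000.1 in SI1. The 6 measured genes of stomach and Brunner gland mucus summed to 655.8 to 800.8 in SI3 and 712.9 to 982.5 in SI2. In SI1 that sum was 11366 with HF-PO, 2395 with HF-OO and 2306.5 with HF-SO, so the HF-PO array of SI1 stood apart in gastric transcripts. The goblet cell mucus genes, each by the probe set that stands for it, were also compared between parts without that array. Where this ended a call, turned a sign or moved a difference by more than 1.5-fold, the value without the array is given. For other probe sets and the genes of other lists, calls were not checked singly without it.

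The comparison of the parts asked how the goblet cell mucus genes are expressed along the intestine. Of the 9 genes, 8 were higher in SI3 than in SI1 and 0 were lower. By the same test, limma's with Benjamini-Hochberg adjustment and an adjusted p under 0.05, 25.2% of all tested genes were higher in SI3 and 20.4% lower. The 9 genes had a median log2 difference of 0.98 between SI3 and SI1, where all tested genes had one of 0.07. In scraped tissue, more goblet cells, more RNA per goblet cell and a different mix of other cells cannot be told apart.

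Muc2, the gel-forming mucin itself, had signals of 36799, 39450.2 and 36094 in SI3 with HF-PO, HF-OO and HF-SO. In SI2 its signals were 24383, 24755 and 25221, and in SI1 they were 15381, 16572 and 17273, in the same order of diets. The 3 parts did not overlap, and the order of levels was SI3, then SI2, then SI1. How many of all tested genes show no overlap was not counted, here or for the genes below. Between SI3 and SI1 the log2 difference was 1.19 (SE 0.08), or 2.28-fold, with an adjusted p = 7.56e-05. Both steps were of like size, with log2 differences of 0.59 between SI3 and SI2 (adjusted p = 0.00395) and 0.60 between SI2 and SI1 (adjusted p = 0.00659).

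Agr2 encodes a protein disulfide isomerase of the endoplasmic reticulum that mucin production needs. It had signals of 12106, 14356 and 14242 in SI3 with HF-PO, HF-OO and HF-SO, 8063, 7812 and 7616 in SI2, and 5875, 5049 and 5446.5 in SI1. Its difference between SI3 and SI1, 1.31 on the log2 scale (SE 0.11, adjusted p = 0.000148), was the highest among the 9 genes. The parts did not overlap, and both steps passed, with log2 differences of 0.79 between SI3 and SI2 (adjusted p = 0.00352) and 0.52 between SI2 and SI1 (adjusted p = 0.0224). A dimmer Agr2 probe set did not show this. It had signals of 1359 to 2068 in SI3 and 1074 to 1997 in SI1, which overlap, and a log2 difference of 0.27 with an interval from -0.57 to 1.11 (adjusted p = 0.564). Between SI3 and SI2 it gave 0.58 (adjusted p = 0.294) and between SI2 and SI1 -0.30 (adjusted p = 0.603), the opposite sign of the brighter probe set. With the mean of both probe sets the Agr2 difference was 0.79 between SI3 and SI1 (adjusted p = 0.0164), and that between SI2 and SI1 did not pass (0.11, adjusted p = 0.744).

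The transcription factors had the same order of parts. Atoh1, the basic helix-loop-helix factor that commits progenitors to secretion, had signals of 1324, 1491 and 1595 in SI3 with HF-PO, HF-OO and HF-SO, 975.2, 816.8 and 924.5 in SI2, and 659.2, 671.2 and 713.8 in SI1. The parts did not overlap. Its log2 difference was 1.09 between SI3 and SI1 (SE 0.10, adjusted p = 0.000264), 0.69 between SI3 and SI2 (adjusted p = 0.00482) and 0.40 between SI2 and SI1 (adjusted p = 0.0436). Without the HF-PO array of SI1 the last of these had an adjusted p = 0.115.

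Spdef, an ETS-family factor, had signals of 588.4, 699.7 and 706.2 in SI3 with HF-PO, HF-OO and HF-SO. Its signals were 354.6, 330.6 and 377.7 in SI2 and 306.5, 266.9 and 279.4 in SI1. SI3 lay well apart, while the gap between SI2 and SI1 was small. The log2 difference was 1.18 between SI3 and SI1 (SE 0.11, adjusted p = 0.000237) and 0.88 between SI3 and SI2 (adjusted p = 0.00230). Between SI2 and SI1 it was 0.30 (SE 0.11) and did not pass (adjusted p = 0.106).

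Spink4, a small secreted protein of the Kazal protease inhibitor family, had signals of 16609, 19975 and 19517 in SI3 with HF-PO, HF-OO and HF-SO. Its signals were 12347, 12767 and 13165 in SI2 and 10392.5, 8603 and 9422 in SI1, with no overlap between parts. The log2 differences were 0.98 between SI3 and SI1 (SE 0.11, adjusted p = 0.000663), 0.55 between SI3 and SI2 (adjusted p = 0.0167) and 0.43 between SI2 and SI1 (adjusted p = 0.0462). The last did not pass with a pseudocount of 1 (adjusted p = 0.0520).

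**Figure D1:**
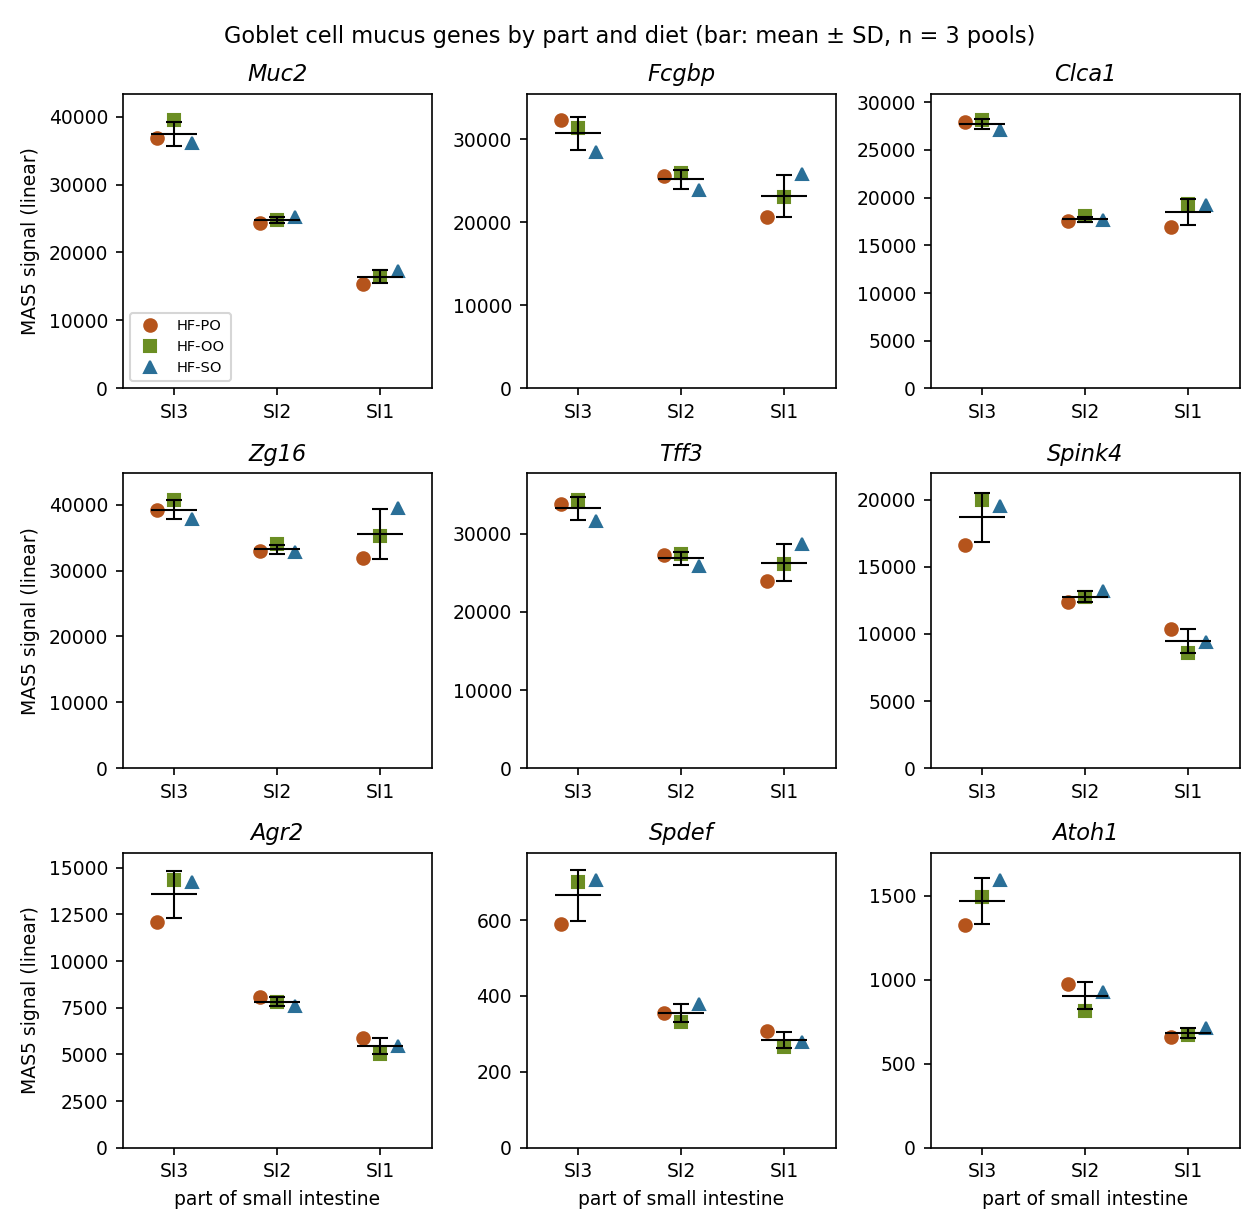
MAS5 signal (linear axis from 0, a separate scale for each gene) of the 9 goblet cell mucus genes in the distal (SI3), middle (SI2) and proximal (SI1) part, with 1 point for each diet pool and a black bar for the mean ± SD of 3 pools. The 3 parts do not overlap for Muc2, Agr2, Spink4, Spdef and Atoh1. The share of all tested genes whose parts do not overlap was not counted. Clca1 is higher in SI3 than in SI2 and SI1, which overlap, and Zg16 overlaps between SI3 and SI1.

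Promoter sequences are shown for Muc2, Agr2 and Spdef, which differed more than 2-fold between SI3 and SI1, and for Fcgbp, whose levels differed less. Atoh1 also differed more than 2-fold (2.13-fold), and its sequence is not printed. They are RefSeq sequences of build GRCm38.p6 from 250 bases before to 50 after an annotated start, read along the gene, and 5 of the 9 genes had an entry. The windows are chr7:141690090-141690389 (+ strand) for Muc2, chr12:35992675-35992974 (+ strand) for Agr2, chr17:27728902-27729201 (- strand) for Spdef and chr7:28070986-28071285 (+ strand) for Fcgbp. The Spdef gene spans chr17:27714446-27731003, so its window lies inside the gene, at an internal start. Capitals mark the E-box CAGNTG, a hexamer of the kind that ATOH1 and other basic helix-loop-helix factors bind, and TTTATG, the core bound by the intestinal homeobox factor CDX2, each on either strand (CANCTG and CATAAA on the other).
Muc2: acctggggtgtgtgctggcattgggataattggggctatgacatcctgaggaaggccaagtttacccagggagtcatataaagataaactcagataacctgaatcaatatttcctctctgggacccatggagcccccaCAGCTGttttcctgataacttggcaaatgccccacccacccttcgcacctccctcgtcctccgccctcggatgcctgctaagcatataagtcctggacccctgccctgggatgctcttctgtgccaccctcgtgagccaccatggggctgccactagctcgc
Agr2: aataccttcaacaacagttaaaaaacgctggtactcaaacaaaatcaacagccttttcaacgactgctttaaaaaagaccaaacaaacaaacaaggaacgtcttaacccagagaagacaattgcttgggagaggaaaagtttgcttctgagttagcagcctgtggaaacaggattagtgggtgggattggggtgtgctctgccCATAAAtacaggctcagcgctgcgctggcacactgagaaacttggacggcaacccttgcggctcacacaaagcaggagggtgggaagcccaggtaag
Spdef: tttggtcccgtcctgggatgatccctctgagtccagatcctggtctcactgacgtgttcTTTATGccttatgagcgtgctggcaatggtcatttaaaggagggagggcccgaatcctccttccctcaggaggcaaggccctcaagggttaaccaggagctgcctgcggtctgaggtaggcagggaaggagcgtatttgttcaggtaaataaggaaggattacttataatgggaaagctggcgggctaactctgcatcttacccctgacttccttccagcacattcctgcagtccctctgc
Fcgbp: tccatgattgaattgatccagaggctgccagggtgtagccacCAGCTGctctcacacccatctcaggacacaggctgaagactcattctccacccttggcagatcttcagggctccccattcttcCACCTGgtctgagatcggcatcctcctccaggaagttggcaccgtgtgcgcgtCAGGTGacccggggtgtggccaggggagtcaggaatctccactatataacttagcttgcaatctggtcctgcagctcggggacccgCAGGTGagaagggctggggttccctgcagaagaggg
The Muc2 window holds 1 E-box, at position -112 from the start (counted to the first base of the match), and the Fcgbp window holds 4, at -208, -125, -72 and 15. Agr2 and Spdef have no E-box in the window and 1 CDX2 core each, at -47 in Agr2 and -191 in Spdef. The Atoh1 window, chr6:64728875-64729174 (+ strand), has neither. Of 32851 promoters of that length, 51.4% hold such an E-box and 11.9% the CDX2 core. A match describes the letters of the window and shows no binding.

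The remaining secreted proteins had log2 differences between SI3 and SI1 of 0.58 or less, and the sizes were not tested against each other. Clca1, a secreted metalloprotease that cuts MUC2 and loosens the mucus, had signals of 27918, 28105 and 27073 in SI3 with HF-PO, HF-OO and HF-SO. In SI2 it had 17565, 18049 and 17638, and in SI1 16958, 19371 and 19271.5. SI3 lay apart from both other parts, and SI2 and SI1 overlapped. The log2 difference was 0.58 between SI3 and SI1 (SE 0.09, adjusted p = 0.00180) and 0.64 between SI3 and SI2 (adjusted p = 0.00303). It was -0.06 between SI2 and SI1, with a 95% interval from -0.26 to 0.14 (adjusted p = 0.677). Without the HF-PO array of SI1 it was -0.12 (adjusted p = 0.422). A dimmer Clca1 probe set gave 0.91 between SI3 and SI1 (adjusted p = 0.00424), 1.09 between SI3 and SI2 (adjusted p = 0.00487) and -0.18 between SI2 and SI1 (adjusted p = 0.491).

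Fcgbp encodes a long mucus protein with von Willebrand domains that is found bound in the MUC2 gel. It had signals of 32261, 31385 and 28389.7 in SI3 with HF-PO, HF-OO and HF-SO, 25537, 25978 and 23899.7 in SI2, and 20682, 23063 and 25791 in SI1. SI3 did not overlap with SI1, and SI2 did. The log2 difference between SI3 and SI1 was 0.41 (SE 0.11, adjusted p = 0.0235). The differences of 0.29 between SI3 and SI2 (adjusted p = 0.117) and 0.12 between SI2 and SI1 (adjusted p = 0.501) did not pass, and the step between SI2 and SI1 was 0.018 (adjusted p = 0.935) without the HF-PO array of SI1.

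Tff3, the trefoil peptide of goblet cells, which promotes repair of the epithelium, was alike. Its signals were 33880.3, 34335 and 31593 in SI3 with HF-PO, HF-OO and HF-SO, 27279, 27446 and 25872 in SI2, and 24026, 26083.5 and 28749 in SI1. SI2 lay within the range of SI1, and SI3 above both. The log2 difference was 0.34 between SI3 and SI1 (SE 0.10, adjusted p = 0.0276), 0.31 between SI3 and SI2 (adjusted p = 0.0673) and 0.035 between SI2 and SI1 (adjusted p = 0.843), which turned to -0.040 (adjusted p = 0.832) without the HF-PO array of SI1. For both Fcgbp and Tff3 the call between SI3 and SI1 was lost without the HF-PO array of SI1, at 0.30 (adjusted p = 0.0808) and 0.27 (adjusted p = 0.0938).

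Zg16 was the 1 gene of the 9 that passed the test in no comparison of parts. It encodes a lectin of the mucus that binds Gram-positive bacteria, and it takes its name from the zymogen granules of the pancreas. Its signals were 39188, 40726 and 37822 in SI3 with HF-PO, HF-OO and HF-SO, 32942, 33979 and 32782 in SI2, and 31874, 35273 and 39521 in SI1. SI3 lay above SI2, and SI1 spanned from below SI2 to within SI3. The log2 difference was 0.15 between SI3 and SI1 (95% interval from -0.08 to 0.38, adjusted p = 0.261) and 0.24 between SI3 and SI2 (adjusted p = 0.129). Between SI2 and SI1 it was -0.092 (adjusted p = 0.564). Without the HF-PO array of SI1 the differences from SI1 were 0.075 for SI3 (adjusted p = 0.607) and -0.16 for SI2 (adjusted p = 0.358). Its other 2 probe sets gave 0.17 and 0.04 between SI3 and SI1. The 7 pancreatic markers were all lower in SI3 than in SI1, and their part in the level of Zg16 in SI1 was not tested.

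**Figure D2:**
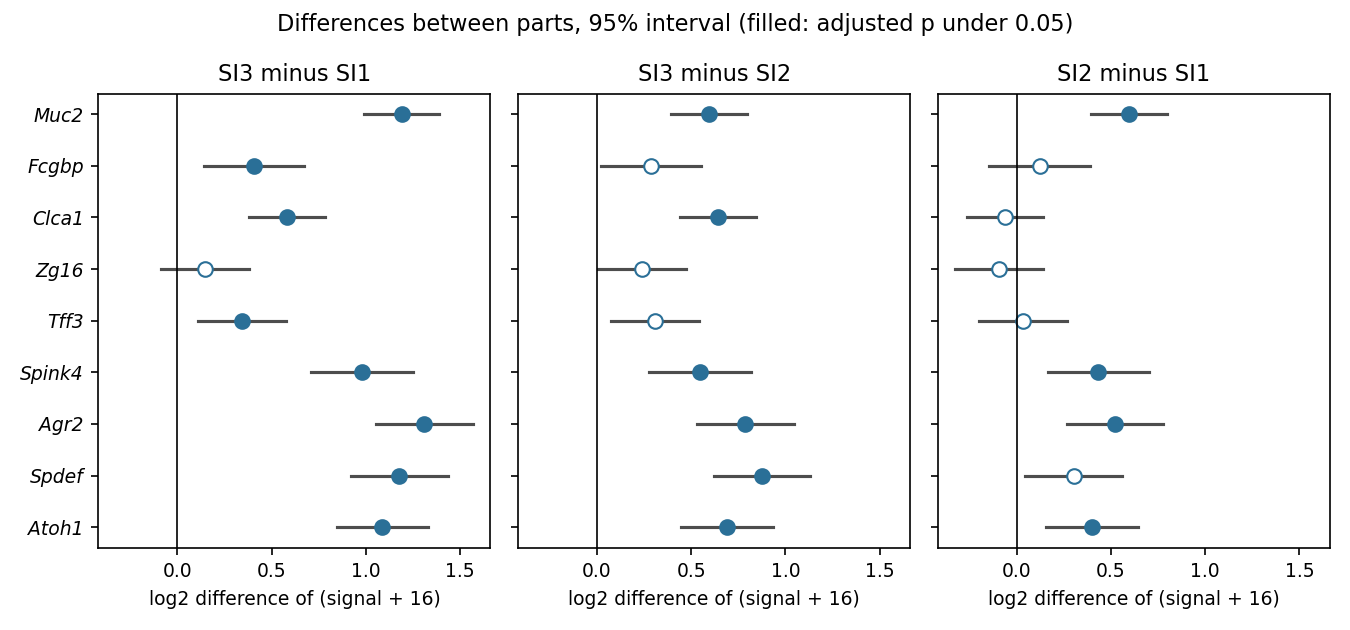
Log2 difference of signal + 16 (x axis) of each gene between SI3 and SI1, SI3 and SI2, and SI2 and SI1, with 95% intervals from limma over 3 pools; filled points have an adjusted p under 0.05. Filled points number 8, 6 and 4 of 9 from left to right, and the differences between SI2 and SI1 of Clca1, Zg16, Tff3 and Fcgbp lie near 0.

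Some of these signals were near the top of the scale. Zg16 stood between 67.9% and 73.9% of the highest signal of its array, Tff3 between 51.6% and 61.7%, Fcgbp between 45.6% and 58.8%, and Clca1 at no more than 51.9%. Muc2 stood between 32.3% and 69.3%. Spdef and Atoh1 stayed at or below 1.36% and 3.06%. Whether brightness limits the size of a difference was not tested.

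By step, 6 of the 9 genes were higher in SI3 than in SI2 (Muc2, Agr2, Clca1, Spink4, Spdef and Atoh1), beside 11.5% of all tested genes, and 0 were lower, beside 11.9%. Between SI2 and SI1, 4 were higher (Muc2, Agr2, Spink4 and Atoh1), beside 7.23% of all tested genes, and 0 were lower, beside 7.83%. The median log2 difference of the 9 genes was 0.59 at the distal step and 0.30 at the proximal step, against 0.04 and 0.02 over all tested genes. With 1 diet pool left out, the count between SI2 and SI1 was 0 without HF-PO, 0 without HF-OO and 0 without HF-SO by limma. At an unadjusted p under 0.05 it was then 5, 4 and 3. The share of all tested genes under that threshold was not counted, so these counts cannot be judged as high or low. With adjustment, 811, 537 and 628 of all 22519 probe sets tested were called higher or lower between SI2 and SI1. Between SI3 and SI2 the adjusted count of the 9 genes was 6, 1 and 3, beside 2394, 1317 and 1714 probe sets. Over SI3 and SI1 it was 6 without HF-PO, 6 without HF-OO and 8 without HF-SO, beside 7581, 5551 and 6478 probe sets.

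Within each pool, the difference between SI3 and SI1 was positive in 3 of 3 pools for the 8 genes called, and in 2 of 3 for Zg16. The calls rest on these same differences, so the shared sign adds no support to them. The share of all tested genes positive in 3 of 3 pools was not counted. The difference ran from 1.06 to 1.26 for Muc2, from 0.99 to 1.14 for Atoh1 and from 0.49 to 0.72 for Clca1. For Agr2 it was 1.04 with HF-PO, 1.50 with HF-OO and 1.38 with HF-SO. Spink4 (0.68, 1.21 and 1.05) and Spdef (0.91, 1.34 and 1.29) were also lowest with HF-PO. Fcgbp ran the other way, at 0.64, 0.44 and 0.14, as did Tff3, at 0.50, 0.40 and 0.14. Each of these values rests on 1 pair of arrays, so no difference between pools was tested.

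The genes also differed in how they varied inside a part. With the mean of each part taken out, Muc2, Tff3, Fcgbp, Clca1 and Zg16 correlated with each other over the 9 arrays with r from 0.70 to 0.98 (10 pairs). Agr2, Spink4 and Spdef correlated with r from 0.81 to 0.89 (3 pairs). Between these sets r lay from -0.65 to -0.10 (15 pairs). Atoh1 fell in neither set, with r from 0.34 to 0.64 with Agr2, Spink4 and Spdef and from -0.16 to 0.15 with the other genes. The sets were chosen after the values were seen, and the points of an array share its labelling and scaling. Without the HF-PO array of SI1 the ranges were 0.41 to 0.97, 0.75 to 0.85 and -0.53 to 0.56, and 7 of the 15 pairs between the sets were positive.

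Other genes of goblet cells and of mucin production were described by lists, which are plotted by their differences between SI3 and SI1. Each count is to be read against the 25.2% of all tested genes that were higher in SI3 and the 20.4% that were lower, and no list was tested against other genes. Of 14 tested genes for other goblet cell products and granules, 11 were higher in SI3 than in SI1 and 0 were lower, with a median of 0.68. Guca2a, the precursor of the peptide guanylin, had signals of 18619.6 to 20668 in SI3 and 2041 to 2423 in SI1, a log2 difference of 3.17 (adjusted p = 4.35e-06). Bcas1 differed by 1.46, Sytl2, a Rab effector of granule exocytosis, by 1.07 and Scin, an actin-severing protein, by 0.80. Lypd8 (0.08, adjusted p = 0.464), Nlrp6 (0.20, adjusted p = 0.0738) and Vamp8 (-0.15, adjusted p = 0.198) did not pass. Retnlb, a goblet cell protein induced by bacteria and worms, was not tested and stood at 4.6 to 6.9 in SI3 and 3.4 to 8.1 in SI1.

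Of 15 lineage regulators, 5 were higher in SI3 and 2 lower, shares near those over all tested genes (25.2% and 20.4%). The forkhead factor Foxa1 had signals of 1561 to 1829.7 in SI3 and 392.3 to 428.9 in SI1, a log2 difference of 2.01 (adjusted p = 1.68e-05), and Foxa3 differed by 0.60 (adjusted p = 0.00734). The membrane-bound factors Creb3l4 and Creb3l1 differed by 1.21 and 0.67 and Sox9 by 0.95. Hes1, the Notch target that represses Atoh1, fell by 0.49 on the log2 scale (adjusted p = 0.0302), with signals of 414.4 to 500.2 in SI3 and 584.9 to 673.5 in SI1. The Notch ligand Dll1 fell by 0.30 (adjusted p = 0.0329). Klf4 (0.18), Gfi1 (0.22), Cdx2 (-0.23) and Neurog3 (-0.03) did not pass, with adjusted p-values of 0.174, 0.230, 0.119 and 0.883.

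Of 20 tested genes for O-glycosylation of mucins, 10 were higher in SI3, where 25.2% of all tested genes were. Another 4 were lower, a share near the 20.4% over all tested genes. The higher ones included all 5 polypeptide GalNAc-transferases on the list, which add the first sugar. Galnt12 had signals of 1932 to 2009 in SI3 and 768.5 to 856.9 in SI1, a log2 difference of 1.28 (adjusted p = 5.9e-05), and Galnt5 differed by 1.38. The core 3 synthase B3gnt6 differed by 1.86, with signals of 235.4 to 285.8 in SI3 and 51.9 to 78.4 in SI1, and the core 2 branching enzyme Gcnt1 averaged 217.9 ± 14.3 in SI3 and 83.2 ± 16.1 in SI1 (SD, n = 3 each, limma's adjusted p = 0.000315). The sialyltransferases St3gal1 and St3gal6 fell by 1.19 and fell by 1.09, and B3gnt7 fell by 0.82.

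In the list for folding and secretion, 10 of 21 genes were higher in SI3 and 1 lower, with a median of 0.09. Ern2, the stress sensor IRE1 beta of mucous epithelia, differed by 1.27, from limma with an adjusted p = 0.000877. The disulfide isomerases Pdia6 (1.02) and Pdia5 (0.85) and the chaperone Hspa5 (0.32) were also higher. Xbp1, the target of the IRE1 enzymes, did not pass (0.07, adjusted p = 0.519).

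Genes that act on released mucus were mixed, with 4 of 8 higher and 3 lower. The meprin subunits Mep1a and Mep1b, proteases of the brush border of which meprin beta cuts MUC2, differed by 3.60 and 0.46. Slc12a2, the basolateral chloride importer, differed by 1.04, while the sodium-proton exchanger Slc9a3 fell by 2.16 and Cftr (0.22, adjusted p = 0.127) did not pass. Slc26a6 (-0.55) and Slc26a3 (-0.35) were also lower, and Tgm2 (1.01) was higher. Of 4 tested transmembrane mucins, Muc4 fell by 0.41 and Muc3 (0.18) and Muc13 (0.25) did not pass.

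**Figure D3:**
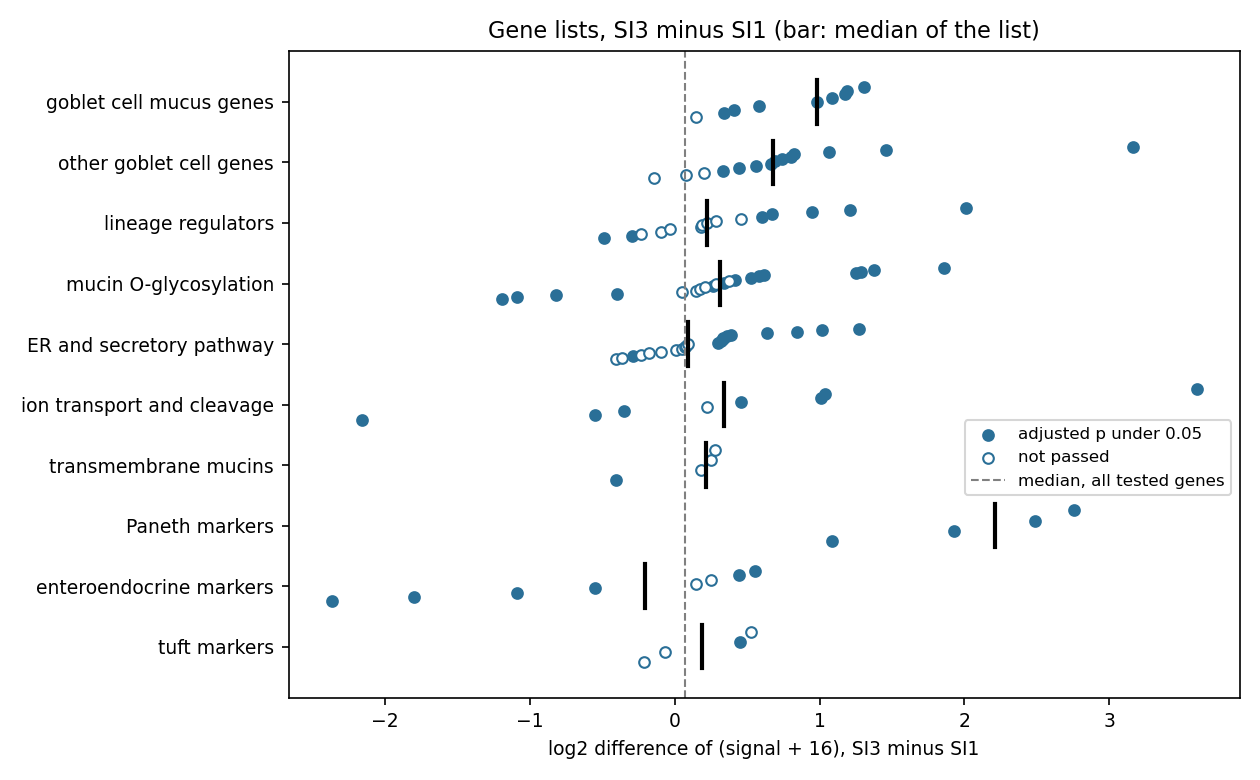
Log2 difference of signal + 16 between SI3 and SI1 (x axis) for each tested gene of 10 lists, with filled points for an adjusted p under 0.05, black bars for the median of a list and a dashed line for the median of all tested genes, 0.07. The 9 goblet cell mucus genes have a median of 0.98, other goblet cell genes one of 0.68 and Paneth markers one of 2.21.

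Markers of other cell types were counted in the same comparison, in which 25.2% of all tested genes were higher and 20.4% lower. The Paneth cell markers Lyz1, Mmp7, Ang4 and Itln1 were higher in SI3 in 4 of 4, by 1.08, 2.49, 2.76 and 1.93, and their summed signal was 89975 to 106461 in SI3 and 28425 to 37576 in SI1. Of the stem cell markers 3 of 4 were higher, and of the proliferation markers 4 of 5, with Ccna2 at 1.15. Enterocyte markers had 2 of 5 higher and 2 lower, with sums of 146386 to 159370.0 in SI3 and 137744 to 164801 in SI1. Immune markers were lower in 4 of 4, with sums of 9772 to 11222 in SI3 and 28135 to 29419 in SI1, and smooth muscle markers in 2 of 4. The fat cell marker Adipoq was 2.69 higher. Of the measured markers of these lists, 0 stood at 0. The part of these cells in the levels of the goblet cell mucus genes was not tested.

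The genes most like Muc2 in their pattern over the arrays were found by Pearson's r with Muc2 over the 9 arrays. It was taken on log2(signal + 16), among 10976 other tested genes, and compares neither the level nor the size of a difference. The values describe a shared order of the parts, since arrays of a part share their level. The 10 highest were Ipmk, Chic1, Scin, Mgat4c, Fam102b, Tmigd1, Mep1a, Ceacam1, Glce and Fryl, with r from 0.993 to 0.998. Their log2 differences between SI3 and SI1 ran from 0.34 (Fryl) to 6.09 (Mgat4c), where that of Muc2 was 1.19. In all, 983 genes (8.96%) had an r of at least 0.9. Among the goblet cell mucus genes, Agr2 ranked 148th (r = 0.972), Atoh1 221st (0.966), Spink4 274th (0.962) and Spdef 543rd (0.939). Fcgbp, Tff3, Clca1 and Zg16 had r of 0.887, 0.854, 0.817 and 0.533.

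The comparison of diets asked whether the kind of fat goes with other levels of the goblet cell mucus genes. Each combination of diet and part has 1 array, so a difference between diets could not be checked against replicates, and none was given a p-value. A diet set a gene apart where signal + 16 was at least 1.5-fold above both other diets of that part, or as far below both. Of the 9 genes, 0 were set apart in any diet or part, where 10.7% of all tested genes were set apart at least once. The highest diet stood at most 1.20-fold over the lowest in SI3 (Spink4) and 1.19-fold in SI2 (Atoh1). In SI1 the widest spread was that of Fcgbp, with 20682 with HF-PO and 25791 with HF-SO.

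In SI3, Muc2 with HF-PO differed from the mean of the other diets by -0.04 on the log2 scale. Fcgbp differed by 0.11, Tff3 by 0.04, Clca1 by 0.02 and Zg16 by -0.00217. Spdef (-0.25), Spink4 (-0.25), Agr2 (-0.24) and Atoh1 (-0.22) were lowest with HF-PO. That is 4 of 9 genes, where 39.8% of all tested genes were lowest with HF-PO in SI3. The median over the 9 genes was -0.04, against -0.02 over all tested genes.

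In SI2 the differences of the 9 genes lay between -0.07 (Spink4) and 0.16 (Atoh1), with a median of 0.00468. In SI1 they had a median of -0.14, and 6 of 9 were lowest with HF-PO, where 35.1% of all tested genes were. These were Muc2, Tff3, Fcgbp, Clca1, Zg16 and Atoh1. Agr2 (0.16), Spink4 (0.21) and Spdef (0.16) were highest there with HF-PO, 3 of 9 genes where 34.6% of all tested genes were. The gastric transcripts Tff2 and Gkn2 had signals of 4474 and 2515 on that array, against 374.0 and 357.0 with HF-OO and 693.3 and 342.5 with HF-SO, and their part in these differences was not tested.

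**Figure D4:**
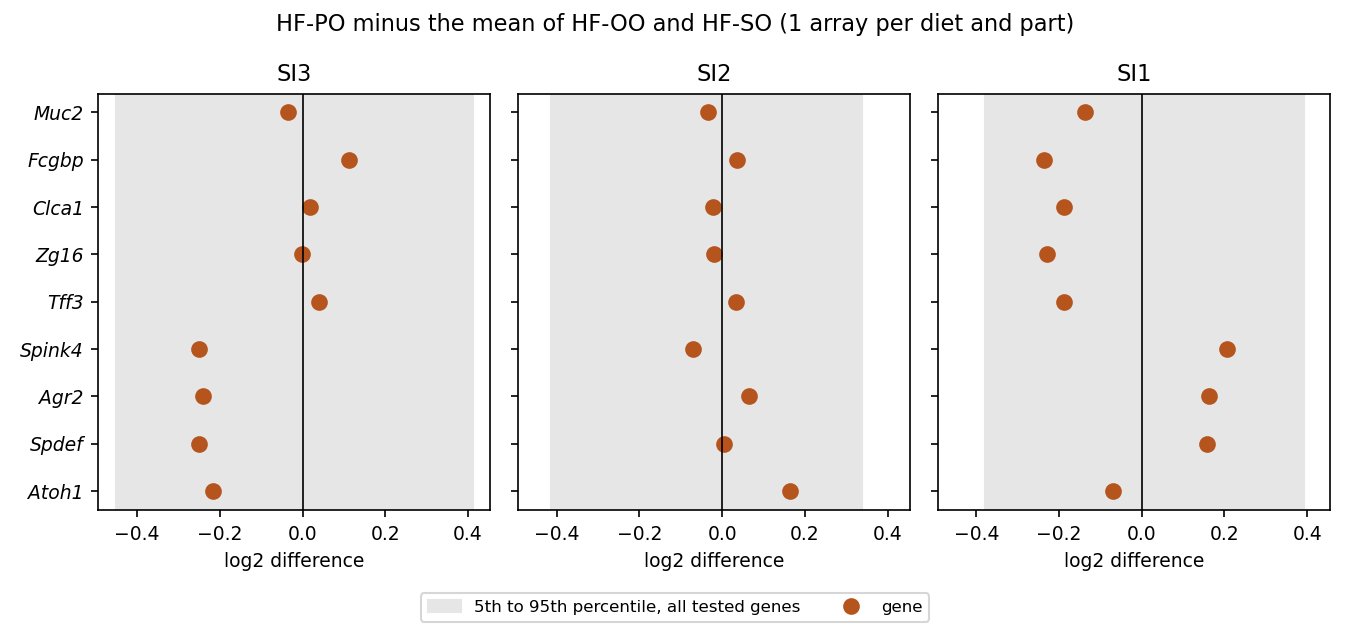
Log2 difference of signal + 16 (x axis) between HF-PO and the mean of the other diets (HF-OO, HF-SO) for each of the 9 genes in SI3, SI2 and SI1, with 1 array per diet and part and a grey band from the 5th to the 95th percentile of all tested genes. All 27 points lie inside the bands, between -0.25 and 0.21.

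Between HF-OO and HF-SO, the median log2 difference over the 9 genes was 0.05 in SI3, 0.03 in SI2 and -0.11 in SI1. In SI3, 5 of 9 genes were lowest with HF-SO, where 31.3% of all tested genes were. These were Muc2, Fcgbp, Tff3, Zg16 and Clca1, with log2 differences of 0.13, 0.14, 0.12, 0.11 and 0.054 between HF-OO and HF-SO. In SI1, 5 of 9 genes were highest with HF-SO, where 36.4% of all tested genes were. They were Muc2, Fcgbp, Tff3, Zg16 and Atoh1, with differences of -0.060, -0.16, -0.14, -0.16 and -0.087.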

How the data were processed

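The deposited table holds MAS5 signal intensity, 1 linear value per probe set and array, made by the authors per the submitters' processing notes, which give no version. The trimmed mean (2% from each end) is the same on all 9 arrays, so the authors' scaling was kept. Detection calls were not used here. Array controls (64 of 45101 probe sets) were left out. GEO's platform annotation gave the gene names: 34945 probe sets carried 1 symbol, 932 several and 9160 none.

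All tests used log2(signal + 16). Probe sets with a mean at or above the median, 6.80, were tested (22519). Limma 3.58.1 in R 4.3.3 fitted part and diet pool, with the pool as a block because the labels pool the same 6 mice per diet for every part, with two-sided moderated tests, 4 residual degrees of freedom and Benjamini-Hochberg adjustment over all probe sets tested. P-values thus measure the spread of the segment difference between 3 pools, which includes any true difference between diets. The fit was tested on simulated data. Summaries and plots were made in Python 3.11.15, with pandas 2.3.3 for tables.

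The genes and lists, and the alternatives tried, were chosen with earlier results of these data known. Named are the 9 genes, members of the lists and the 10 genes with the highest r with Muc2.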

Additional observations from a re-analysis of the deposited data

Results flagged for a closer look

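Some differences between parts had opposite signs in the diet pools, each resting on 1 pair of arrays, and the difference between pools was not tested. Between SI2 and SI1 Tff3 differed by 0.18 with HF-PO, 0.073 with HF-OO and -0.15 with HF-SO on the log2 scale. Fcgbp differed by 0.30, 0.17 and -0.11 there, Clca1 by 0.051, -0.10 and -0.13, and Zg16 by 0.048, -0.054 and -0.27, in the same order of diets. Between SI3 and SI1 Zg16 differed by 0.30 with HF-PO, 0.21 with HF-OO and -0.063 with HF-SO. In each of these 5 cases the HF-PO pool had the highest value and the HF-SO pool the lowest. All 5 are differences from the same SI1 arrays, and Zg16 is among them more than once, so they are not separate cases. In SI1, Tff3, Fcgbp, Clca1 and Zg16 were lowest on the HF-PO array, which stood apart in gastric transcripts. The part of that array in these signs was not tested.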

How the results depend on the processing

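Between SI3 and SI1, 8 of the 9 genes were called; the count stayed at 8 with a pseudocount of 1 or 64, quantile normalisation, the mean of a gene's probe sets and no diet block, and it lay between 6 and 8 with a pool or the HF-PO array of SI1 left out (the array chosen after seeing the data), where the calls lost were those of Tff3 and Fcgbp. With a filter at the 75th percentile it was 7, since Spdef was not tested, and 7 were called between SI3 and SI2, with Tff3 and Fcgbp added. With every probe set tested, 6 were called between SI3 and SI1 and 0 between SI2 and SI1. At an unadjusted p under 0.05 the latter count was 4, with no share of all genes counted beside it, so it cannot be judged as high or low. The cause of the fewer calls was not tested. Between SI2 and SI1 the 4 calls became 3 with a pseudocount of 1, quantile normalisation or the mean of probe sets. Left-out pools or that array gave 0 to 3 calls between SI2 and SI1 and 1 to 6 between SI3 and SI2. With no replicate block the counts were 8, 4 and 7 for SI3 against SI1, SI2 against SI1 and SI3 against SI2. Over all probe sets, testing without a filter called 6768 between SI3 and SI1, 604 between SI2 and SI1 and 1681 between SI3 and SI2. With the main filter 9969, 3375 and 4787 were called. The filter at the 75th percentile, which tests fewer probe sets, called 6778 between SI3 and SI1 and 4323 between SI3 and SI2. Between SI3 and SI1, 9769 were called with a pseudocount of 1, 10344 with 64, 9701 with quantile normalisation and 10178 with no diet block. Leaving out the pool of HF-PO, of HF-OO or of HF-SO called 7581, 5551 or 6478 between SI3 and SI1 (9969 with all pools), 811, 537 or 628 between SI2 and SI1, and 2394, 1317 or 1714 between SI3 and SI2; without the single array these were 8583, 1949 and 4814. Tff3 between SI2 and SI1 turned to -0.039 without the HF-PO pool and to -0.040 without its SI1 array; the cause was not tested. Agr2 between SI2 and SI1 was 0.11 (adjusted p = 0.744) as the mean of its probe sets. Of the 9 genes, 0 were set apart by diet under a lower fold threshold either. The share of all tested genes set apart under the lower threshold was not counted, so that count cannot be judged as low. Under a higher threshold the count had to be 0, since it was 0 under the main one, so it adds no support.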

Other observations

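Of 5 tested genes that carry cytokine signals to goblet cells, 2 were higher in SI3 than in SI1, 2 were lower and 1 did not pass, where 25.2% of all tested genes were higher and 20.4% lower. The interleukin 4 receptor chain Il4ra was 0.60 higher in SI3 on the log2 scale (adjusted p = 0.00779) and the interleukin 22 receptor chain Il22ra1 0.59 higher (adjusted p = 0.00756). Stat6, which acts downstream of Il4ra, fell by 0.34 (adjusted p = 0.0215), and Il10rb fell by 0.29 (adjusted p = 0.0226). Il13ra1 did not pass (-0.05, adjusted p = 0.721). The cytokine genes Il4 and Il13 were below the filter, with Il13 at 5.9 to 23.0 in SI3 and 7.6 to 16.2 in SI1.

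Enteroendocrine and tuft cells are other epithelial lineages whose markers were measured. Their counts are to be read against the 25.2% of all tested genes that were higher in SI3 than in SI1 and the 20.4% that were lower. Of 8 tested enteroendocrine markers 2 were higher in SI3, a share near that over all tested genes, and 4 were lower. Among the lower ones were the hormone genes Cck (-2.37) and Gip (-1.80), and the median of the list was -0.20. Of 4 tested tuft cell markers Dclk1 was higher (0.45), again a share near that over all tested genes. Trpm5 (-0.21), Pou2f3 (0.52) and Avil (-0.07) did not pass.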
